A study of Mus musculus with 4 samples.

Results

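The genes of blood coagulation and fibrinolysis were followed in livers of *Rap1*-deficient and wild-type mice. The set was a list of 31 mouse genes given by name, and their probes were found through the transcript accessions in the array files. All 31 were on the array, among 19752 genes named there, and 28 of them could be tested, among 13167 genes. *Rap1*-deficient mice (Rap1 -/-) had lost the gene in the whole body, through a cross of mice with a floxed *Rap1* gene to mice with Cre driven by the adenovirus EIIa promoter, which acts in the early embryo. RAP1, encoded by *Terf2ip*, is a telomere-binding protein that also binds elsewhere in the genome, and the study asked with expression profiles whether changes in transcription go with the obesity and metabolic traits of mice without it. The 3 *Rap1*-deficient and 3 wild-type livers came from mice labelled 30 weeks old, on a mixed C57BL6/129SV background (90%:10%), with no treatment named. The labels give no sex, and the study's text gives females of another age. RNA integrity numbers lay between 6.6 and 8.7 and were not given by genotype.

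Each of 4 Agilent arrays carried RNA of both genotypes, labelled with a different dye. *Rap1*-deficient liver was in the Cy5 channel on the arrays of replicates 1, 2 and 3, and in the Cy3 channel on a dye-swapped array (the dye swap), whose label carries the number 1 and which was therefore taken as the swap of replicate 1. A ratio below is the log2 ratio of *Rap1*-deficient over wild-type liver on 1 array, so that a positive value is higher in *Rap1*-deficient liver. A fold change is the mean over 3 pairs of livers, with the 2 arrays of replicate 1 averaged. It was called when limma gave a Benjamini-Hochberg adjusted p under 0.15 over all 27513 tested probes, and each gene is represented by its brightest probe. The labels number the replicates without naming animals, so the p-values measure the spread between these samples. Replicates 2 and 3 had *Rap1*-deficient liver in Cy5 only, so dye and genotype cannot be told apart there. A dye bias can thus add to a fold change and its call without widening that spread. A gene said below to rise or fall was called higher or lower.

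Of all tested probes 34.5% were called, 5717 higher and 3771 lower in *Rap1*-deficient liver. The share of calls that were higher, 60.3%, depended on the scaling, and was 87.7% with median centring in place of loess, 49.3% with the scanner software's processed intensities and 45.3% with the deposited value table. Across these probes the arrays of replicates 1, 2 and 3 correlated at r = 0.64 to 0.85, whereas the turned ratios of the dye swap had r = -0.24, -0.29 and -0.27 with them. Its ratios had an SD of 0.24, against 0.51, 0.48 and 0.50 in replicates 1, 2 and 3. The array that stood apart was therefore the dye-swapped one, and its value is given beside each result. *Terf2ip* probe A_52_P381806, the check of the deletion, had ratios of -1.74, -1.92 and -1.91 in replicates 1, 2 and 3 and -1.68 in the dye swap. The scanner software flagged it as well above background, here called detected, in *Rap1*-deficient liver on 0 of 4 arrays and in wild-type liver on 4 of 4. By this probe the deleted gene's RNA was thus lower by at least 3.34-fold. The measured log2 fold change was -1.85 (limma adjusted p = 0.00859). Another *Terf2ip* probe, A_55_P2094079, whose place relative to the deleted part was not looked up, was called higher (0.96, adjusted p = 0.0329). The bound sets the mean wild-type signal against a mean limit for *Rap1*-deficient liver. On each array that limit was the higher of the measured signal and the array's lowest detected signal. The bound is open to dye bias. For the lower probe all 4 arrays ran in the labelled direction.

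Blood clots when a cascade of serine proteases, most of them made by hepatocytes and released as inactive zymogens, ends in thrombin, which cuts fibrinogen into fibrin. Tissue factor with factor VII starts the cascade, factors XI, IX and VIII amplify it, and factors X and V form the complex that activates prothrombin. Antithrombin, heparin cofactor II, protein C with its cofactor protein S, thrombomodulin and tissue factor pathway inhibitor hold the cascade back, and plasmin, made from plasminogen, dissolves the fibrin. Several of these genes are not products of hepatocytes. *Vwf*, *F8*, *Thbd* and *Tfpi* are known for expression in endothelial cells, and *F13a1* for expression in macrophages and platelets. In whole-liver RNA, fewer cells of a type and less RNA per cell cannot be told apart.

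Several of the genes lie beside each other in the genome. In the RefSeq annotation of the mouse genome (GRCm38.p6), 0 protein-coding genes lie between *Fgg* and *Fga*, between *Fga* and *Fgb*, between *F7* and *F10*, between *F10* and *Proz*, between *F11* and *Klkb1*, or between *Kng2* and *Kng1*. The 250 bases upstream of the start of 4 genes are printed because the 3 fibrinogen chains, made from neighbouring genes and joined in 1 protein, gave different patterns on the arrays, and because *F11* is the procoagulant gene that was lower on all 4 of them. The sequences are from RefSeq, run 5′ to 3′ toward the start of the gene in its own direction, and carry matches to liver factor motifs in capitals.
Fga (chr3:83025903-83026152, plus strand): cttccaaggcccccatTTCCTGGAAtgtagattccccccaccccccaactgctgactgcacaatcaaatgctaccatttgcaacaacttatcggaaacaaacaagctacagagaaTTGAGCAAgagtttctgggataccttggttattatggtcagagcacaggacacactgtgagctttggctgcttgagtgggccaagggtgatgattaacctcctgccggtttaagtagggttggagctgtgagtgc
Fgb (chr3:83049864-83050113, minus strand): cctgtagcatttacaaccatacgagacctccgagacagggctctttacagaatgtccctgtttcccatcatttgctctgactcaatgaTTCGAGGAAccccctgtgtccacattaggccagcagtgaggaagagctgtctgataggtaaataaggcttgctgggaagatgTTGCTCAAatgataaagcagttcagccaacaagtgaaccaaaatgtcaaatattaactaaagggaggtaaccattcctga
Fgg (chr3:83007474-83007723, plus strand): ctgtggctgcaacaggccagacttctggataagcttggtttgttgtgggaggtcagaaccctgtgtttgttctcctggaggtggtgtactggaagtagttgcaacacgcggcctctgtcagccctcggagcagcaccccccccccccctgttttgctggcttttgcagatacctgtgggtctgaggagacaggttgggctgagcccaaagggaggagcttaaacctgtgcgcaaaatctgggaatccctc
F11 (chr8:45262032-45262281, minus strand): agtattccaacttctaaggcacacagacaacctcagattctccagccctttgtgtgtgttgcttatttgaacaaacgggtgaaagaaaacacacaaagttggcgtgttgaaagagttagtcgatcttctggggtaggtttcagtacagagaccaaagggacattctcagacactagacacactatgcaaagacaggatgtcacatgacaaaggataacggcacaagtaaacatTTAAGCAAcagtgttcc

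The capitals mark matches on either strand to TTGCNNAA (the motif of C/EBP), TTCNNNGAA (STAT), CAAAGTCCA (HNF4) and TATAAA (the TATA box), and no match overlapped another in these sequences. *Fga* held a C/EBP match 135 to 128 bases before its start and a STAT match at 234 to 226 bases. *Fgb* held a C/EBP match at 80 to 73 bases and a STAT match at 162 to 154 bases. *F11* held a C/EBP match at 17 to 10 bases, and *Fgg* held none of the 4 motifs in this window. Promoters of 23 of the 31 genes were searched, 25 promoters in all. Chromosome 18, which holds *Proc*, was left out of the search among these genes. Among these genes, 6 held the C/EBP motif (*F11*, *F9*, *Fga*, *Fgb*, *Klkb1* and *Kng2*), against 9.56% of 32851 mouse promoters. The STAT motif was in 4 (*F9*, *Fga*, *Fgb* and *Pros1*), against 7.02% of all promoters, the TATA box in 2 (*Klkb1* and *Tfpi*), against 12.4%, and the HNF4 motif in 0, against 0.384%. A match is a description of the letters and not a site.

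Of the 28 tested genes, 13 were called, 5 of them higher and 8 lower in *Rap1*-deficient liver. The higher genes were *F2*, *F9*, *F10*, *Vwf* and *Serpinc1*, and the lower ones *F5*, *F11*, *Fga*, *Fgg*, *F13b*, *Tfpi*, *Thbd* and *Plg*. Thus 17.9% of the tested coagulation genes were higher, against 18.0% of all named genes, and 28.6% were lower, against 16.1%. The median fold change over the 28 genes was -0.05 on the log2 scale, against 0.00 over all named genes. With median centring it was 0.12, against 0.17 over all tested probes, and 4 of the 13 calls (*F2*, *F9*, *F13b* and *Serpinc1*) were kept. Of the 9 calls lost, *F10* and *Vwf* then had 0.86 and 0.42 and the 7 lower genes between -0.20 (*F11*) and -0.02 (*Plg*). The calls go by the brightest probe of a gene, and the other probe of *F5* was called higher. All 28 were detected in both genotypes on all 4 arrays, and none had a saturated spot. Without replicate 2 limma kept 0 of the 13 (7 probes called in all, and 0 of the 28 genes at an unadjusted p under 0.05), without replicate 3 it kept 1 (*F11*), and without replicate 1, and thus without its dye swap, it kept 12.

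**Figure D1:**
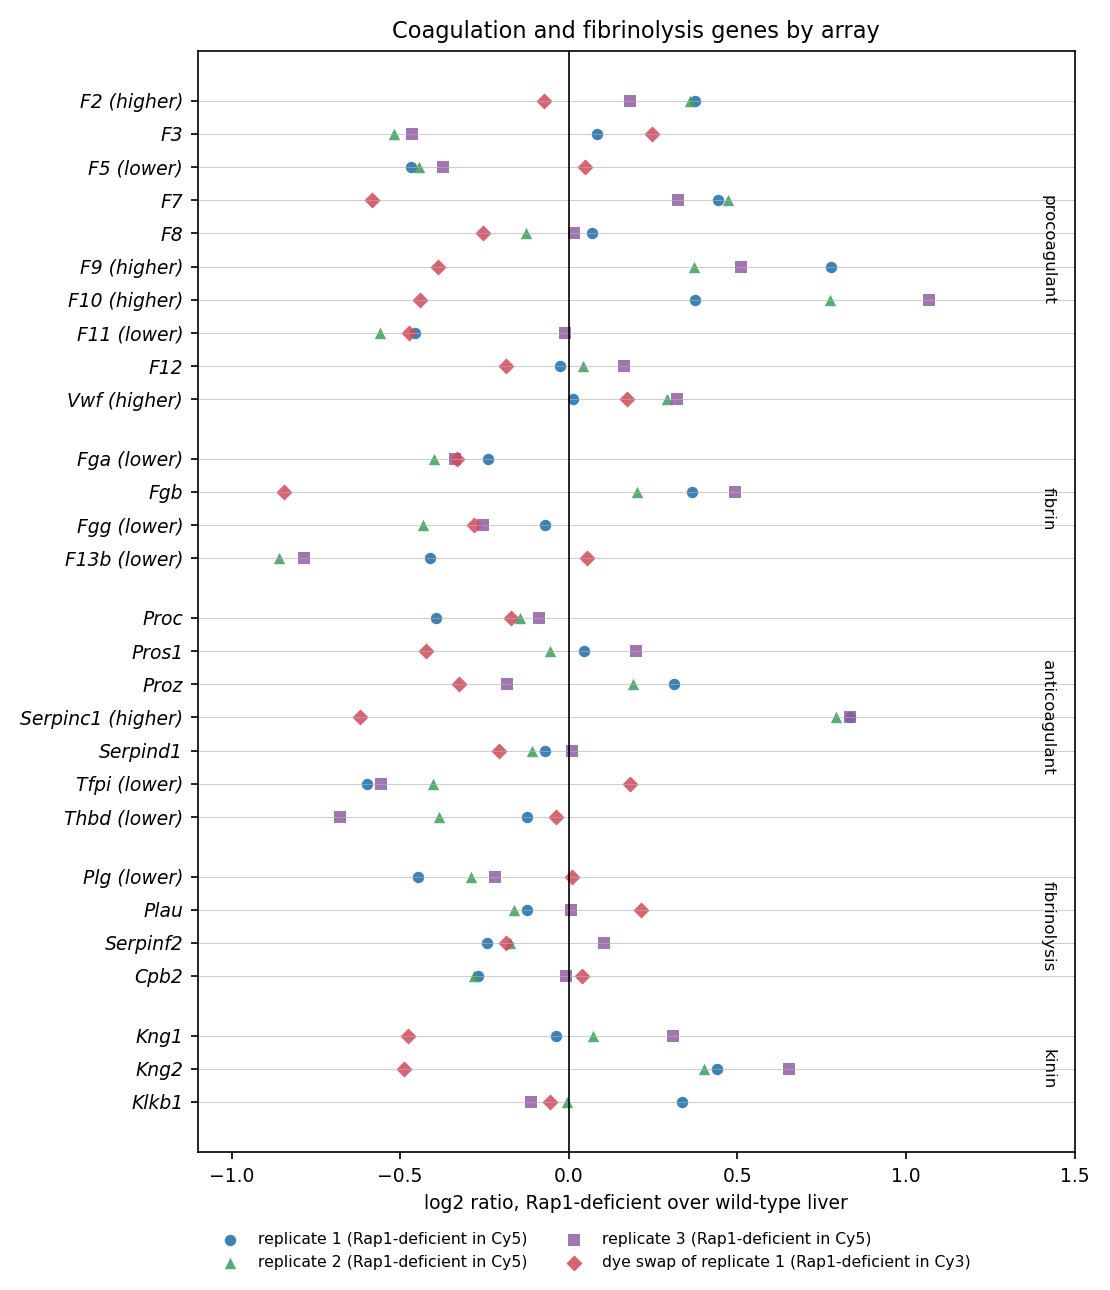
Log2 ratio of *Rap1*-deficient over wild-type liver on each of the 4 arrays (x axis) for the 28 tested coagulation and fibrinolysis genes (y axis, grouped by role, with the call in brackets). Circles, triangles and squares are replicates 1, 2 and 3 and diamonds the dye swap of replicate 1. The diamond of *Serpinc1* lies across 0 from its other 3 symbols (0.83, 0.79 and 0.83, and -0.62 on the dye swap). The 4 symbols of *Fga* lie together between -0.40 and -0.24.

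The called genes differed in their sign on the dye-swapped array. Of the 5 higher genes, 1 (*Vwf*) also had a positive ratio there, and of the 8 lower genes, 4 (*F11*, *Fga*, *Fgg* and *Thbd*) had a negative one. The matching shares among all called genes are not given, so these counts cannot be set against them. Across all tested probes, too, the dye swap correlated negatively with the other arrays. With *Proc*, which was not called, 5 of the 28 genes were lower on all 4 arrays (17.9%, against 11.4% of all named genes), and *Vwf* alone was higher on all 4 (3.57%, against 10.4%). Normalized channel intensities of the 4 measurements of *Rap1*-deficient liver and the 4 of wild-type liver did not overlap for 4 genes lower in *Rap1*-deficient liver, *F11*, *Fga*, *Fgg* and *Proc*, nor for *Vwf* (5 of 28 genes, 17.9%, against 11.3% of all named genes). With a dye term fitted over the 4 arrays, 1 gene kept its call (*Fga*, lower), or 3.57% against 6.44% of all named genes. In that fit 0 of the 28 genes were higher and 6 were lower at an unadjusted p under 0.05. The share of all named genes at that threshold is not given, so these counts cannot be set against it. It takes the 2 arrays of replicate 1 as separate observations, although they carry RNA of the same livers.

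**Figure D2:**
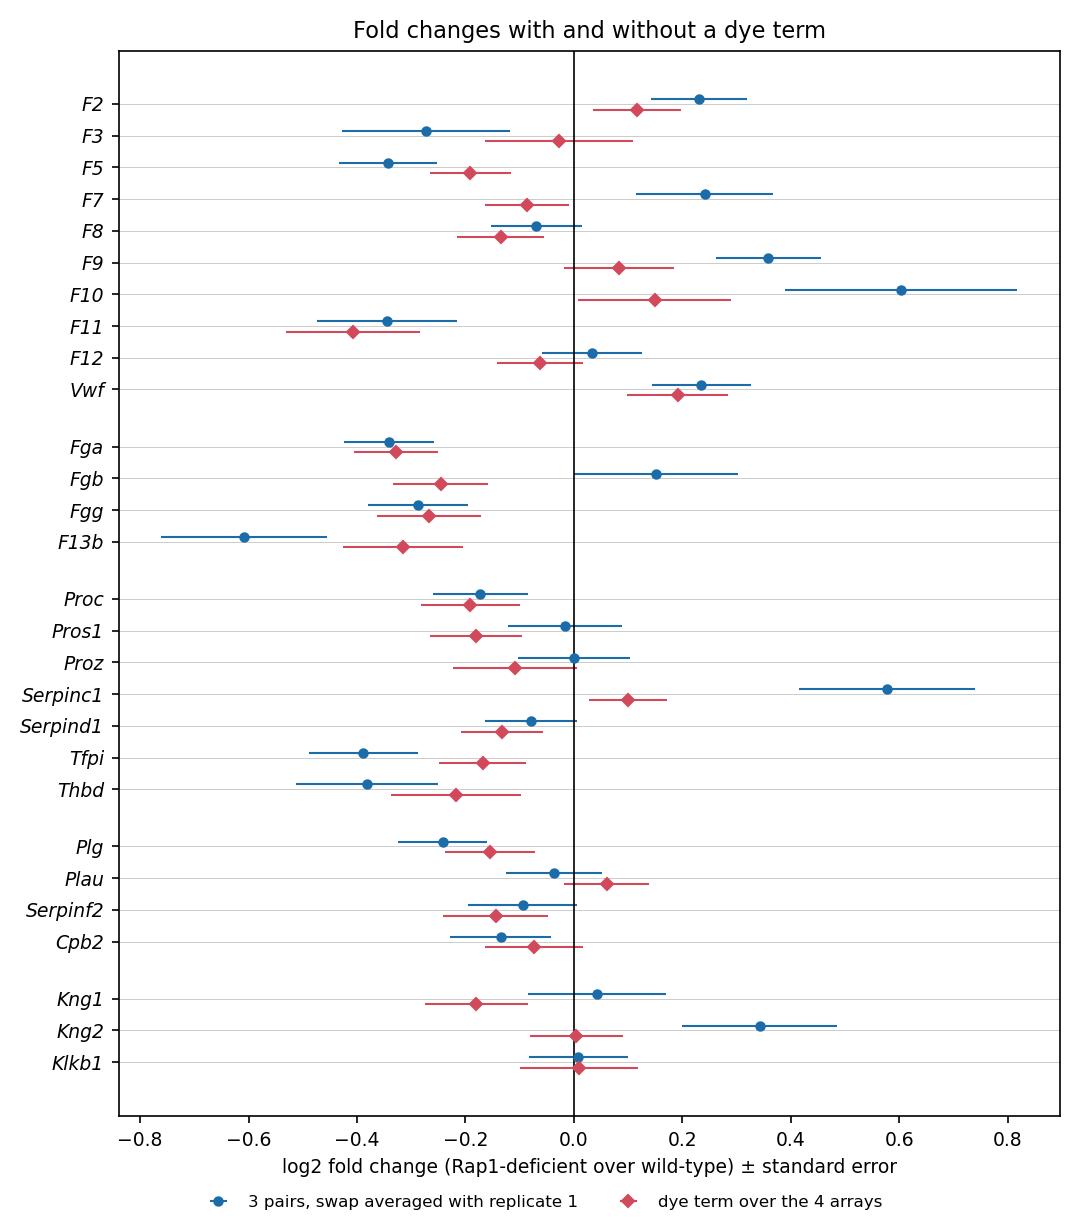
Log2 fold change of *Rap1*-deficient over wild-type liver with its standard error (x axis) for the 28 tested genes (y axis). Circles are the means over 3 pairs and diamonds the values with a dye term over 4 arrays. The 2 values of *Fga* (-0.34 and -0.33), *Fgg* (-0.29 and -0.27) and *Vwf* (0.24 and 0.19) lie close together, and those of *Serpinc1* (0.58 and 0.10) and *F10* (0.60 and 0.15) far apart.

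Among the proteases and cofactors that lead to thrombin, 10 genes were tested, and by their brightest probes 4 were called higher (40%, against 18.0% of all named genes) and 2 lower (20%, against 16.1%). Of these, *F5* and *F10* had a second probe that was not called the same way, and with the dye term 0 of the 10 passed in either direction. *F11*, the zymogen of factor XI, had channel intensities (log2) of 11.32, 11.17 and 11.65 in *Rap1*-deficient livers of replicates 1, 2 and 3 and 11.28 in the dye swap, against 11.78, 11.73, 11.66 and 11.76 in wild-type livers. The genotypes did not overlap, but in replicate 3 they differed by 0.01. Its ratios were -0.46, -0.56 and -0.01 in replicates 1, 2 and 3 and -0.47 in the dye swap, and its fold change was -0.34 (standard error 0.13, adjusted p = 0.132 from limma). The dye term gave -0.41 (adjusted p = 0.194). *Klkb1*, the neighbour of *F11*, encodes plasma prekallikrein and was not called. Its ratios were 0.34, 0.00 and -0.11 in replicates 1, 2 and 3 and -0.06 in the dye swap.

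*Vwf* encodes von Willebrand factor, the carrier of factor VIII and the tether of platelets. Its channel intensities were 9.09, 9.34 and 9.21 in *Rap1*-deficient livers of replicates 1, 2 and 3 and 9.24 in the dye swap, against 9.08, 9.05, 8.89 and 9.07 in wild-type livers. The lowest value in *Rap1*-deficient liver, in replicate 1, lay 0.01 above that of its wild-type partner. The fold change was 0.24 (standard error 0.09, adjusted p = 0.139 from limma), or 1.18-fold. Of 14 endothelial markers, all tested, 4 were higher (28.6%, against 18.0% of all named genes) and 0 lower (against 16.1%). At an unadjusted p under 0.05, 0 were lower as well. Their list medians were 0.06, 0.12 and 0.19 in replicates 1, 2 and 3 and -0.01 in the dye swap. Their summed intensities ranged from 26800 to 30889 in *Rap1*-deficient livers and from 24569 to 27104 in wild-type livers, and none of the 14 was below background. Their part in the change of *Vwf* was not tested.

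*F2*, the gene of prothrombin, had ratios of 0.37, 0.36 and 0.18 in replicates 1, 2 and 3 and -0.07 in the dye swap, with a fold change of 0.23 (standard error 0.09, adjusted p = 0.139 from limma), and its sign was turned in the deposited value table (-0.035). *F9*, encoding the factor missing in hemophilia B, had ratios of 0.78, 0.37 and 0.51, and -0.39 in the dye swap. Its fold change was 0.36 (standard error 0.10, adjusted p = 0.0713). Thus the higher level of both genes was seen on the 3 arrays with *Rap1*-deficient liver in Cy5 and was not seen with the dyes exchanged.

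*F10*, the gene of factor X, was measured by 2 probes with different results. Probe A_55_P2106078 had ratios of 0.37, 0.77 and 1.07 in replicates 1, 2 and 3 and -0.44 in the dye swap, and was called higher (0.60, standard error 0.21, adjusted p = 0.118 from limma). Probe A_51_P174961, annotated to the same transcript, had ratios of -0.20, 0.01, -0.06 and -0.36 and was not called (-0.11, adjusted p = 0.451). *F7*, which lies next to *F10* and encodes the partner of tissue factor, had 2 probes that behaved alike. Its brighter probe gave 0.44, 0.47 and 0.32 in replicates 1, 2 and 3 and -0.58 in the dye swap, and the other 0.25, 0.40, 0.29 and -0.57. Neither was called (adjusted p = 0.236 and 0.379), and the mean of replicate 1 over both dye orientations was -0.07 for the brighter one.

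*F5* encodes factor V, the cofactor of factor X, and its 2 probes were called in opposite directions. Probe A_55_P2076545 had ratios of -0.47, -0.44 and -0.37 in replicates 1, 2 and 3 and 0.05 in the dye swap (fold change -0.34, standard error 0.09, adjusted p = 0.0678 from limma). Probe A_51_P407323 had 0.76, 0.66 and 0.83, and -0.39 in the dye swap (0.56, standard error 0.14, adjusted p = 0.0636). Both carry the accession of the same transcript. With the dye term neither passed (-0.19, adjusted p = 0.269, and 0.18, adjusted p = 0.311), so that no direction for *F5* can be given from these arrays.

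The other 3 genes of this group were not called. *F3*, encoding tissue factor, had ratios of 0.08, -0.52 and -0.47 in replicates 1, 2 and 3 and 0.25 in the dye swap (adjusted p = 0.267 from limma), and its dimmer probe, detected on 1 of 4 arrays in wild-type liver, 0.30, 0.31, 0.11 and -0.06. The replicates of *F3* thus lay on both sides of 0. *F8*, the gene of hemophilia A, had ratios of 0.07, -0.13, 0.01 and -0.26 (adjusted p = 0.59). Its probe A_55_P2072493, for another transcript, was detected on all 4 arrays in *Rap1*-deficient liver and on 0 of 4 in wild-type liver, and was not called (adjusted p = 0.166). *F12*, the contact-activated factor XII, had ratios from -0.19 to 0.16 (adjusted p = 0.822).

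**Figure D3:**
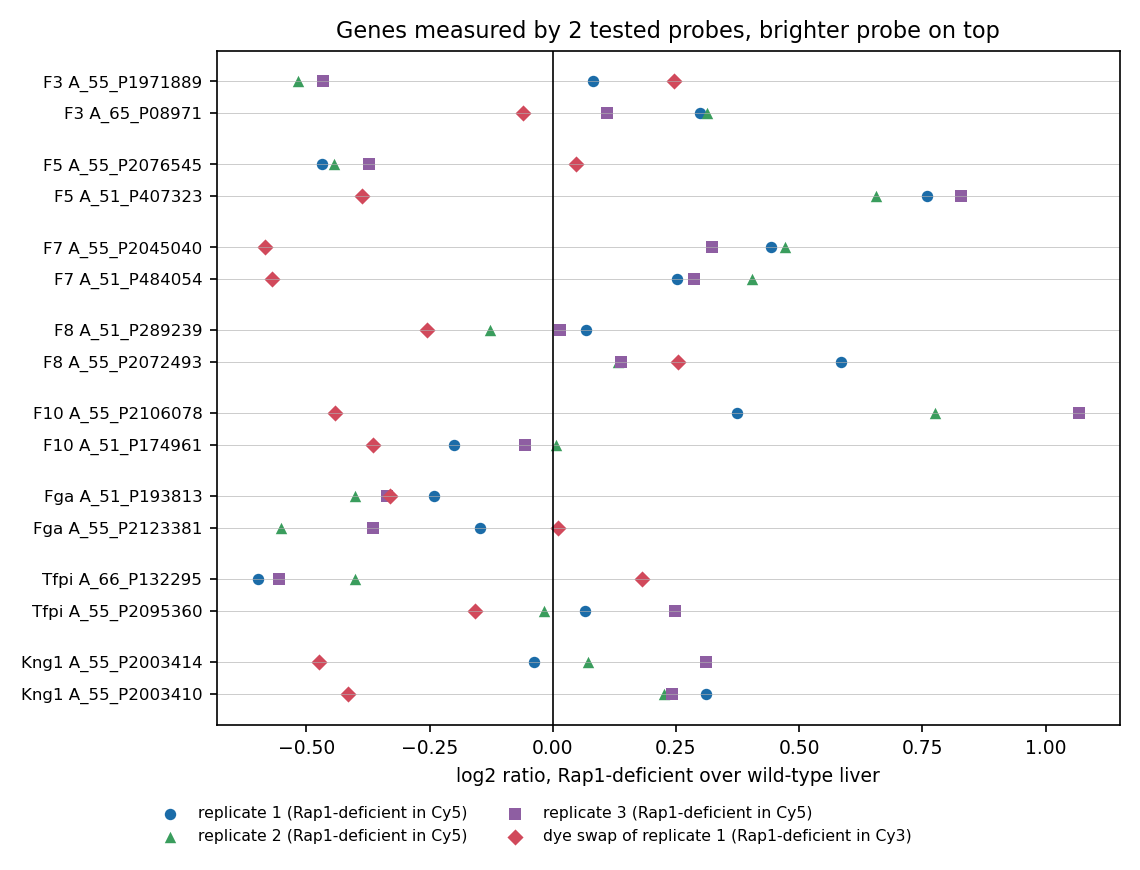
Log2 ratio of *Rap1*-deficient over wild-type liver on each array (x axis) for the 8 genes measured by 2 tested probes (y axis, the brighter probe above). Symbols are as by array: circles, triangles and squares for replicates 1, 2 and 3, diamonds for the dye swap. The probes of *F7* nearly coincide, whereas those of *F5* lie on opposite sides of 0 on all 4 arrays and those of *F10* read 1.07 and -0.06 in replicate 3.

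Fibrinogen is built from 3 chains. Over 3 pairs the genes of its α and γ chains were called lower, and that of the β chain was not called. *Fga* had channel intensities of 13.02, 12.91 and 12.89 in *Rap1*-deficient livers of replicates 1, 2 and 3 and 13.002 in the dye swap, against 13.26, 13.31, 13.22 and 13.33 in wild-type livers. All values in *Rap1*-deficient liver lay below all values in wild-type liver. Its ratios of -0.24, -0.40 and -0.34, and -0.33 in the dye swap, gave a fold change of -0.34 (standard error 0.08, adjusted p = 0.0592 from limma), which is 1.27-fold lower. By this brighter probe it was the 1 gene of the 28 that passed with the dye term (-0.33, standard error 0.08, adjusted p = 0.127). With median centring it had -0.17 and was not called (adjusted p = 0.377 from limma). The dimmer *Fga* probe was also called lower (-0.33, standard error 0.12, adjusted p = 0.118), with ratios of -0.15, -0.55 and -0.36 in replicates 1, 2 and 3 and 0.01 in the dye swap. With the dye term the dimmer probe had -0.17 and did not pass (adjusted p = 0.435 from limma). Thus the 2 probes fell by about the same amount over 3 pairs and differed in the dye swap.

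*Fgg* had channel intensities of 16.85, 16.72 and 16.89 in *Rap1*-deficient livers of replicates 1, 2 and 3 and 16.86 in the dye swap, against 16.93, 17.15, 17.15 and 17.14 in wild-type livers. The genotypes again did not overlap, and the smallest difference was in replicate 1. Its ratios were -0.07, -0.43, -0.25 and, in the dye swap, -0.28, with a fold change of -0.29 (standard error 0.09, adjusted p = 0.0974 from limma) and a dye-term value of -0.27 (adjusted p = 0.242). With median centring it had -0.04 (adjusted p = 0.855). *Fgb* had 17.26, 17.19 and 17.42 in *Rap1*-deficient livers of replicates 1, 2 and 3, against 16.90, 16.99 and 16.92 in wild-type livers, and 16.72 against 17.57 in the dye swap. *Rap1*-deficient liver was thus the brighter on 3 arrays and the dimmer on the other, where the same livers as in replicate 1 carried the opposite dyes. The ratios were 0.36, 0.20, 0.49 and -0.84, with no call (0.15, standard error 0.15, adjusted p = 0.514). With the dye term *Fgb* had -0.25 (standard error 0.09, adjusted p = 0.243 from limma), beside -0.33 for *Fga* and -0.27 for *Fgg*. The mean of replicate 1 over both dye orientations was -0.24 for *Fgb*, -0.29 for *Fga* and -0.18 for *Fgg*.

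**Figure D4:**
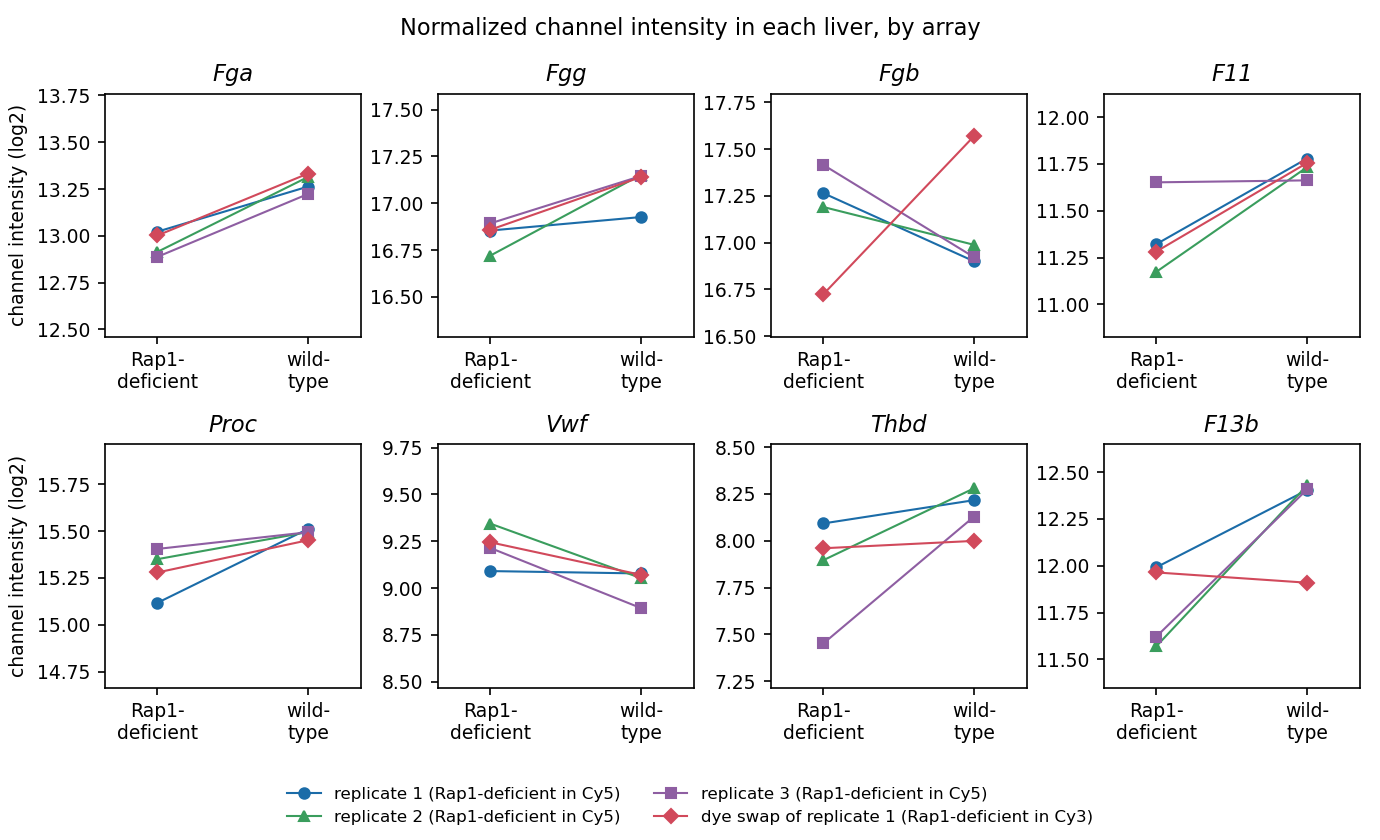
Normalized channel intensity (log2, y axis) of 8 genes in the *Rap1*-deficient (left) and the wild-type liver (right) of each array, joined by a line per array, with y axes of equal length. Symbols are circles, triangles and squares for replicates 1, 2 and 3 and diamonds for the dye swap of replicate 1. The lines of *Fga* and *Fgg* all rise toward wild-type liver, those of *Vwf* all fall, and the dye-swapped line of *Fgb* (16.72 in *Rap1*-deficient and 17.57 in wild-type liver) runs against the other 3.

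*F13b*, encoding the carrier subunit of factor XIII, which crosslinks fibrin, had the largest decrease of the 28 genes over 3 pairs. Its ratios were -0.41, -0.86 and -0.79 in replicates 1, 2 and 3 and 0.05 in the dye swap, with a fold change of -0.61 (standard error 0.15, adjusted p = 0.0629 from limma), 1.52-fold lower. The probe was spotted 10 times on each array, and the spots of an array, 7 to 10 of which had no outlier flag, varied with an SD of 0.03 to 0.08, far less than the arrays differed. In replicate 1 all spots read between -0.47 and -0.35, and on its dye swap between -0.02 and 0.12. The spots of the 2 arrays of the same livers thus did not overlap. Wild-type liver read 12.40, 12.43 and 12.41 in replicates 1, 2 and 3 but 11.91 in the dye swap, whereas *Rap1*-deficient liver read 11.99 in replicate 1 and 11.96 on its swap. *F13a1*, the catalytic subunit, was detected on 3 of 4 arrays in *Rap1*-deficient liver and on 1 of 4 in wild-type liver and was not tested. Its ratios were 0.26, -0.06 and 0.52 in replicates 1, 2 and 3 and 0.39 in the dye swap.

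Macrophage markers moved with replicate 3, where *F13a1* had its highest ratio. The 11 tested Kupffer cell and macrophage markers had median ratios of -0.44, 0.23 and 1.34 in replicates 1, 2 and 3 and -0.27 in the dye swap. Of these markers 1 was called higher (9.09%, against 18.0% of all named genes) and 1 lower (9.09%, against 16.1%). Their summed intensity ranged from 26494 to 93236 in *Rap1*-deficient livers and from 40320 to 42549 in wild-type livers, and no marker on the array was below background in both genotypes on all arrays. Platelet markers, 5 of 11 of which were tested, with *Gp5* not detected on any array, had medians of -0.03, -0.29 and 0.61, and -0.01 in the dye swap. Their summed intensity ranged from 1071 to 1981 in *Rap1*-deficient livers and from 1204 to 1287 in wild-type livers, and 0 were called by limma (0 at an unadjusted p under 0.05). The part of these cells in the values of *F13a1* was not tested.

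Of 7 tested natural anticoagulants, 1 rose (14.3%, against 18.0% of all named genes) and 2 fell (28.6%, against 16.1%), and with the dye term 0 passed in either direction. *Serpinc1*, the gene of antithrombin, the main inhibitor of thrombin and factor X, had channel intensities of 17.04, 17.18 and 17.11 in *Rap1*-deficient livers of replicates 1, 2 and 3, against 16.21, 16.39 and 16.28 in wild-type livers. On the dye-swapped array the order was turned, with 16.41 in *Rap1*-deficient liver and 17.03 in wild-type liver. The ratios were 0.83, 0.79, 0.83 and -0.62, and the fold change 0.58 (standard error 0.16, adjusted p = 0.0769 from limma). With the dye term the fold change was 0.10 (adjusted p = 0.529). The 3 arrays of the same orientation agreed closely, and the mean of replicate 1 over both orientations was 0.11.

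*Tfpi*, which inhibits the tissue factor complex, was called lower by its brighter probe A_66_P132295, with ratios of -0.60, -0.40 and -0.56 in replicates 1, 2 and 3 and 0.18 in the dye swap (-0.39, standard error 0.10, adjusted p = 0.0657 from limma). Its other probe, A_55_P2095360, had 0.06, -0.02, 0.25 and -0.16 and was not called (0.06, adjusted p = 0.687). The decrease thus rested on 1 of 2 probes and on 1 dye orientation. *Thbd*, encoding thrombomodulin, the endothelial receptor that turns thrombin into an activator of protein C, had ratios of -0.12, -0.38 and -0.68, and -0.04 in the dye swap. Its fold change was -0.38 (standard error 0.13, adjusted p = 0.111), with a dye-term value of -0.22 (adjusted p = 0.412). Its lowest channel intensity, 7.45, was in the *Rap1*-deficient liver of replicate 3, against 8.13 in its wild-type partner. The endothelial marker list had a positive median on that array (0.19), and its part in the ratio of *Thbd* was not tested.

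*Proc* encodes protein C, which cuts activated factors V and VIII, and was lower on all 4 arrays, though not with median centring (0.04), without passing the test. Its channel intensities were 15.12, 15.35 and 15.41 in *Rap1*-deficient livers of replicates 1, 2 and 3 and 15.28 in the dye swap, against 15.51, 15.50, 15.49 and 15.45 in wild-type livers. The wild-type values lay within 0.06 of each other, and all *Rap1*-deficient values were lower. The ratios were -0.39, -0.14, -0.09 and -0.17 (fold change -0.17, standard error 0.09, adjusted p = 0.223 from limma). *Pros1*, the gene of its cofactor protein S, had 0.05, -0.06, 0.20 and -0.42 (adjusted p = 0.928). *Proz*, the cofactor of an inhibitor of factor X, had 0.31, 0.19, -0.18 and -0.32 (adjusted p = 0.998), and *Serpind1*, heparin cofactor II, -0.07, -0.11, 0.01 and -0.21 (adjusted p = 0.541). None of these 3 had a ratio of the same sign on all 4 arrays. *A2m*, the gene of a broad protease inhibitor, was detected on 0 of 4 arrays in either genotype and was not tested.

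In fibrinolysis 1 of 4 tested genes fell (25%, against 16.1% of all named genes) and 0 rose (against 18.0%) by limma. The counts were the same at an unadjusted p under 0.05. *Plg*, the gene of plasminogen, had ratios of -0.45, -0.29 and -0.22 in replicates 1, 2 and 3 and 0.01 in the dye swap, with a fold change of -0.24 (standard error 0.08, adjusted p = 0.106 from limma). Its dye-term value was -0.15 (adjusted p = 0.396), and with median centring it had -0.02 (adjusted p = 0.941). *Plau*, encoding urokinase, which activates plasminogen, had ratios of -0.12, -0.16, 0.01 and 0.21 (adjusted p = 0.793). *Serpinf2*, the gene of the plasmin inhibitor, had -0.24, -0.17, 0.11 and -0.19 (adjusted p = 0.54), and *Cpb2*, encoding a carboxypeptidase that protects fibrin from plasmin, -0.27, -0.28, -0.01 and 0.04 (adjusted p = 0.351). These 3 genes lay on both sides of 0 over the 4 arrays. *Plat*, tissue plasminogen activator, was detected on 0 of 4 arrays in either genotype and was not tested.

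The contact and kinin group had 0 calls among 3 tested genes by limma, also at an unadjusted p under 0.05. *Kng1* and *Kng2* encode kininogens, which release bradykinin when cut by kallikrein. *Kng2* had ratios of 0.44, 0.40 and 0.65 in replicates 1, 2 and 3 and -0.49 in the dye swap (0.34, standard error 0.14, adjusted p = 0.161 from limma). *Kng1* had -0.04, 0.07 and 0.31, and -0.48 in the dye swap (adjusted p = 0.837), and its dimmer probe 0.31, 0.23, 0.24 and -0.42. The kininogen genes are close copies of each other, and the sources used here do not say whether their probes tell them apart.

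The difference between the dye orientations was itself tested. The dye coefficient is the part of a ratio that is added when *Rap1*-deficient liver carries Cy5 and subtracted when it carries Cy3. It passed the FDR for 11 of the 28 genes (39.3%, against 26.7% of all named genes), 8 of them positive and 3 negative. The largest was that of *Serpinc1* (0.72, adjusted p = 0.0075 from limma), followed by *Fgb* (0.60, adjusted p = 0.0189) and *F10* (0.59, adjusted p = 0.0565). In the called genes *Fga*, *Fgg*, *F11* and *Vwf* the coefficient lay between 0.00 and 0.07 and did not pass (adjusted p = 0.765 to 0.987). Replicate 1, the only pair measured in both orientations, gave means over both of between -0.47 (*F11*) and 0.20 (*F9*), negative for 21 of the 28 genes (75%), against 48.3% of all named genes, with a median of -0.11 against 0.01. The median ratio over the 28 genes was -0.03, -0.12 and 0.01 in replicates 1, 2 and 3 and -0.20 in the dye swap.

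Hepatocyte markers also shifted with the dye. Of 14 such markers, all tested, 2 were higher (14.3%, against 18.0% of all named genes) and 0 lower (against 16.1%) by limma. At an unadjusted p under 0.05, 0 were lower as well. Their median was 0.19, 0.26 and 0.10 in replicates 1, 2 and 3 and -0.37 in the dye swap. Their summed intensity ranged from 761736 to 1033120 in *Rap1*-deficient livers and from 787580 to 1006330 in wild-type livers, and none was below background. The labelled tissue was thus seen in every channel. The part of the hepatocyte share in the values of the clotting genes was not tested.

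**Figure D5:**
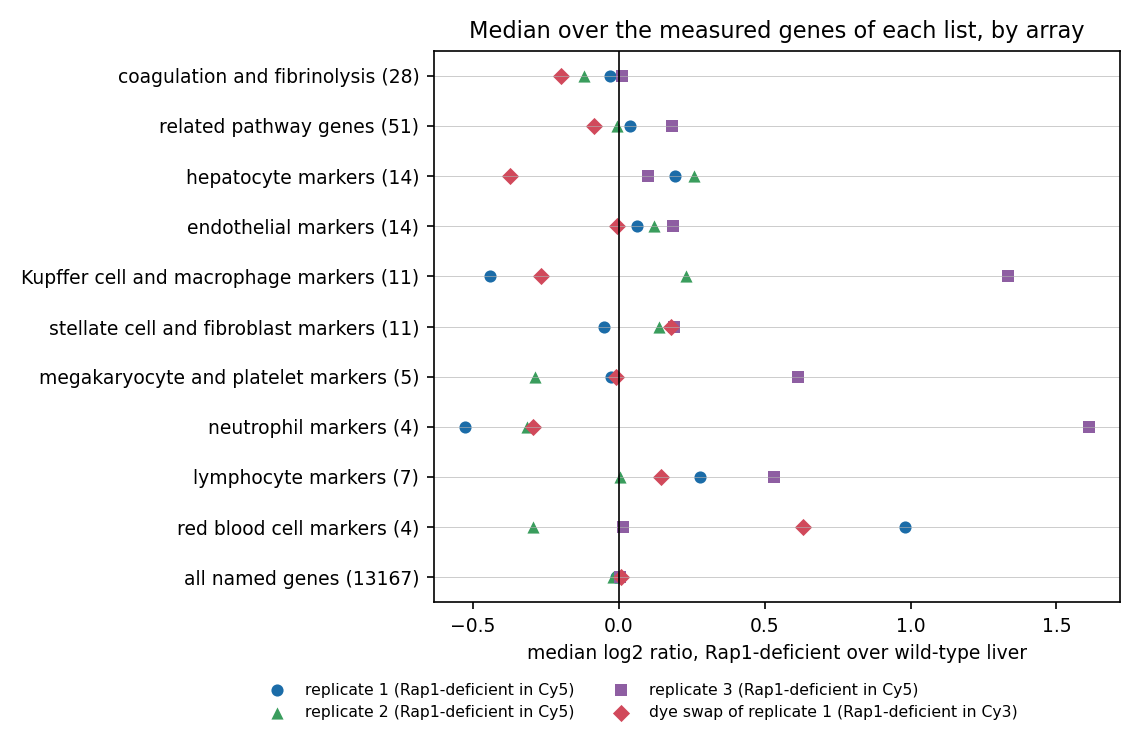
Median log2 ratio of *Rap1*-deficient over wild-type liver on each array (x axis) over the tested genes of each list (y axis, number tested in brackets), with circles, triangles and squares for replicates 1, 2 and 3 and diamonds for the dye swap. On the dye swap the hepatocyte markers had the lowest median of these lists (-0.37), and that of the coagulation genes was -0.20. The macrophage (1.34) and neutrophil markers (1.61) stood apart in replicate 3.

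Further genes of the pathway were followed as well. Of 60, 59 were on the array and 51 were tested, and 13 of these rose (25.5%, against 18.0% of all named genes) and 5 fell (9.80%, against 16.1%). Regulators of plasminogen had the most increases, with 5 of 10 higher (50%, against 18.0% of all named genes) and 1 lower (10%, against 16.1%). The median over them was 0.23. Their median was -0.05 in the dye swap and 0.03 with the dye term, with which 0 passed in either direction. Of the 5, *Hrg*, *Lrp1* and *Eno1* had negative ratios in the dye swap (-0.40, -0.18 and -0.07), and the other two, *Anxa2* and *Mmp2*, are given because the choice of genes asked for the same sign on all 4 arrays. *Anxa2*, encoding a cell surface receptor for plasminogen and its activator, had ratios of 0.54, 0.20 and 1.03 in replicates 1, 2 and 3 and 0.37 in the dye swap (0.56, standard error 0.17, adjusted p = 0.0863 from limma). *Mmp2*, a matrix protease and detected on 2 of 4 arrays in wild-type liver, had 0.54, 0.31, 0.30 and 0.08 (0.30, adjusted p = 0.0678). *Hpn*, a membrane protease that can activate factor VII, had -0.01, -0.12, -0.19 and -0.03 and was not called (adjusted p = 0.397).

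Among 16 tested serpins and other inhibitors 3 rose (18.8%, against 18.0% of all named genes) and 3 fell (18.8%, against 16.1%), shares near those of all genes. *Tfpi2*, a relative of *Tfpi* that inhibits plasmin, had ratios of -0.53, -0.62 and -0.91 in replicates 1, 2 and 3 and -0.09 in the dye swap (-0.61, standard error 0.13, adjusted p = 0.0495 from limma) and passed with the dye term as well (-0.39, adjusted p = 0.146). The α1-antitrypsin gene *Serpina1c* fell by 0.25 (adjusted p = 0.107), and *Serpina1e* and *Serpina1a* had -0.20 (adjusted p = 0.156) and -0.17 (adjusted p = 0.213) over 3 pairs. Another copy, *Serpina1d*, had ratios of 0.43, 0.26, 0.20 and -0.42 (0.15, adjusted p = 0.295). The copies are near-identical and their probes may share signal, so their values are uncertain. *C4bp*, whose product binds protein S, had -0.40, -0.58, -0.10 and -0.04 (-0.30, adjusted p = 0.142). The list of the protein C pathway and cell surface partners had 13 tested genes. Of these 2 rose (15.4%, against 18.0% of all named genes) and 1 fell (7.69%, against 16.1%). The higher ones were *Gas6* and *Mertk*, and the lower one was *C4bp*. The list of the vitamin K cycle and gamma-carboxylation, which modify factors II, VII, IX and X, had 2 of 5 higher (40%) and 0 lower. The higher ones, *Ggcx* and *Vkorc1l1*, had negative ratios in the dye swap (-0.44 and -0.09). With the dye term 0 of this list passed in either direction. The list of protease-activated and kinin receptors, which also held enzymes, had 1 of 5 tested genes higher (20%) and 0 lower. The higher one was *Cpn1*, a carboxypeptidase and not a receptor, with -0.48 in the dye swap. The thrombin receptor gene *F2r* was not called (adjusted p = 0.552 from limma). The receptor genes *F2rl1*, *F2rl2*, *F2rl3*, *Bdkrb1* and *Bdkrb2* were detected on 0 of 4 arrays in either genotype and were not tested. In the vitamin K list and the receptor list 0 were lower at an unadjusted p under 0.05 as well. The shares of all named genes were 18.0% higher and 16.1% lower.

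Of 19 hepatic transcription factors known to act on clotting factor genes, all were tested, and 5 rose (26.3%, against 18.0% of all named genes) and 3 fell (15.8%, against 16.1%). The 4 with the smallest p were *Cebpa*, *Foxa2*, *Ppara* and *Foxa1*. *Cebpa*, encoding C/EBPα, had ratios of 1.80, 1.97 and 1.32 in replicates 1, 2 and 3 and -0.13 in the dye swap (1.37, standard error 0.21, adjusted p = 0.0402 from limma). *Ppara*, a nuclear receptor of fatty acid breakdown that lowers fibrinogen when activated in mice, had 0.99, 0.94, 0.90 and 0.15 (0.80, standard error 0.11, adjusted p = 0.0402). The dye coefficient passed for *Cebpa* (0.91, adjusted p = 0.0204 from limma), *Foxa2* (-0.52, adjusted p = 0.0221) and *Ppara* (0.40, adjusted p = 0.0328). It did not pass for *Foxa1* (-0.07, adjusted p = 0.679 from limma). The study reported the opposite direction for *Ppara*, by qPCR in livers of younger *Rap1*-deficient females. The pioneer factors *Foxa2* (-0.99, -1.09, -1.20 and -0.06) and *Foxa1* (-0.41, -0.45, -0.72 and -0.39) were lower on all 4 arrays, with values over 3 pairs of -0.94 and -0.52 (adjusted p = 0.0402 and 0.0426 from limma). All 4 also passed with the dye term (adjusted p = 0.054 to 0.0994). *Hnf4a*, the gene of HNF4α, had a fold change of 0.05 and was not called (adjusted p = 0.704). Whether these factors bear on the clotting genes was not tested.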

How the data were processed

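Liver RNA of 3 *Rap1*-deficient and 3 wild-type mice was hybridised to 4 Agilent arrays on 1 slide, with 1 scan each. The authors deposited spot intensities quantified with Agilent Feature Extraction 10.7.3.1 (the version per the file headers, with design build mm9). The deposited log10 ratios of Cy5 over Cy3 were computed by that software from its background-subtracted, dye-normalized signals. The authors also deposited a value table of log2 ratios, averaged over the spots of a probe, with limma named in the submitters' processing notes and its settings not stated. The column of the dye-swapped array in this table was already turned, as its correlation of -0.65 with the scan ratio showed. Column medians were -0.0119, -0.0157, -0.0203 and 0.000826.

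Median intensities were background-corrected (normexp, offset 50) and loess-normalized within arrays in limma 3.58.1 (R 4.3.3), with control spots at weight 0. Channel intensities were additionally Aquantile-normalized. Spots without outlier flags were averaged. Of 55681 probes, 27513 (49.4%) were tested, those of which a share of 0.5 or more of the spots was flagged well above background in either genotype on all 4 arrays. The flag was set for 50.1% to 56.4% of spots and 0 were saturated. With 4 arrays, precision is limited by their number. The dye swap was averaged with replicate 1, and limma fitted an intercept over 3 pairs, at the study's FDR of 0.15. Alternatives were median centring, no background correction, processed intensities, the value table, a dye term, other uses of the dye swap, other filters, all probes of a gene, and each replicate left out.

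The genes, lists and tests were chosen with earlier results of these data known. All 31 genes are accounted for. The rule named 8 related genes (smallest p, same sign on all 4 arrays) and 4 transcription factors (smallest p). Promoters are from RefSeq (GRCm38.p6), and array coordinates were not used. One item among the transcription factors is not reported here.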

Additional observations from a re-analysis of the deposited data

Results flagged for a closer look

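The effect differed between the dye orientations, by the test of the dye coefficient (limma, 4 arrays, adjusted p under 0.15 over all probes), in 11 of the 28 genes. The coefficient was positive, so that *Rap1*-deficient liver read higher when it carried Cy5, for *Serpinc1* (0.72), *Fgb* (0.60), *F10* (0.59), *F7* (0.50), *Kng2* (0.49), *F9* (0.47), *Kng1* (0.30) and *Pros1* (0.24). It was negative for *F13b* (-0.37), *Tfpi* (-0.35) and *F5* (-0.24). Of these 11, 6 were among the 13 called genes (*F5*, *F9*, *F10*, *F13b*, *Serpinc1* and *Tfpi*). The orientation with *Rap1*-deficient liver in Cy3 has 1 array, and what sets it apart from the others was not tested.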

How the results depend on the processing

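The 13 calls rest on 3 pairs and on the use made of the dye swap. The dye term gave 1844 called probes, 0 coagulation genes higher and 1 lower (6 lower and 0 higher at an unadjusted p under 0.05), a median of -0.13 and 1 related gene in each direction. As a replicate of its own, the swap left 83 probes and 0 coagulation and 0 related genes in either direction (0 and 5 coagulation genes, 5 and 4 related genes, higher and lower at an unadjusted p under 0.05). Shares of all named genes at the unadjusted p are not given, so the unadjusted counts cannot be set against them. Without the swap, 14496 probes, 8 coagulation genes higher and 10 lower, and 18 related genes higher and 9 lower, were called. Median centring, which moved the median of all probes to 0.17 from 0.03 and the share of called probes that were higher to 87.7% from 60.3%, gave 3 coagulation genes higher and 1 lower, a median of 0.12 and 1 related gene lower. Processed intensities (49.3% of calls higher) gave 1 coagulation gene higher and 8 lower, a median of -0.19 and 6 and 8 related genes higher and lower. The value table (45.3% higher) gave 3 higher and 10 lower, a median of -0.16 and 8 and 11 related genes. It reversed *F2* (-0.035, adjusted p = 0.828 from limma) and *Kng1* (-0.23, adjusted p = 0.135). The causes were not tested.

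Of the 13 calls, median centring kept 4, processed intensities 9 and no filter 12, and 11 were kept with the value table. No background correction and the stricter filter kept all 13. With each replicate left out (replicate 1 with its dye swap), called probes ranged from 7 to 12596, coagulation genes higher from 0 to 8 and lower from 0 to 8, their median from -0.12 to -0.05, and related genes from 0 to 16 higher and 0 to 8 lower. No paired analysis was possible beyond the fit over 3 pairs, because each array already holds both genotypes and only the number 1 is shared between dye orientations.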

Other observations

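A few related genes, picked after their values were seen, stood apart by replicate or dye. *Procr*, the endothelial receptor of protein C, had a ratio of 2.42 in replicate 3, against -0.21 and 0.05 in replicates 1 and 2 and 0.00 in the dye swap, and was not called (adjusted p = 0.314 from limma). In replicate 3 the 4 tested neutrophil markers had a median ratio of 1.61, against -0.53 and -0.31 in replicates 1 and 2. *Gas6*, a vitamin K-dependent relative of protein S, rose by a fold change of 0.46 on the log2 scale (adjusted p = 0.0439). Its ratios were -0.02, 0.58 and 0.48 in replicates 1, 2 and 3 and 0.68 in the dye swap. It was the 1 related gene called higher with the dye term (0.51, adjusted p = 0.146). *Cpn1*, encoding the catalytic subunit of carboxypeptidase N, which inactivates kinins, had the largest increase of the related genes over 3 pairs (0.93, adjusted p = 0.0406) and a ratio of -0.48 in the dye swap.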
